A study of Mus musculus and Acomys cahirinus with 84 samples.

Results

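The libraries described here came from primary skin fibroblasts of C56BL6 mice (the strain name is spelled as in the labels), collected 12 d after 20 gy of gamma irradiation, and from untreated cells of the same strain and time. There were 4 libraries in each group, replicates 1 to 4, so that 8 of the 84 libraries of the series enter the main comparison. The 8 were chosen by their labels: strain, dose and time, with the untreated cells that had been passaged kept apart as a group of their own. All were in batch B2, and the RNA was extracted with a PureLink kit and made into stranded mRNA libraries. Each replicate number goes with a single culture code across the dose groups, so an irradiated library has an untreated partner. Values of 4 libraries at 10 gy and of 4 untreated passaged libraries, same strain, time and batch, are set beside the comparison. Cells of the same strain at 24 h (batch B1) and fibroblasts of wild mice at 12 d serve 2 further comparisons. The labels do not say whether the culture codes are separate animals, so the p-values below measure the spread between these cultures.

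Gamma rays break DNA. In fibroblasts the p53 pathway answers by raising the CDK inhibitor p21 (Cdkn1a) and other targets, and cells that do not repair stop dividing for good, a state called senescence. Senescent fibroblasts are known for secreting cytokines, chemokines and matrix proteases, for losing lamin B1 from the nuclear lamina, for a rise in lysosomal beta-galactosidase activity, and for an interferon response set off by DNA in the cytoplasm. Resting fibroblasts, by contrast, are known mainly for making collagen and other matrix.

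The 8 libraries held 28274893 to 36885813 counts, so that 3 counts stand for 0.081 to 0.106 CPM, the usual unit of counts scaled to a fixed library total. Levels below are CPM over the 16 C56BL6 libraries of 12 d, with edgeR's TMM factors applied. These factors, 0.932 to 1.076 in the 8 libraries, are not in the CPM given for 3 counts. Mitochondrial genes took 1.27 to 1.42% of counts in untreated and 1.85 to 2.36% in irradiated libraries. The 10 fibroblast markers were detected in all 8 libraries, and 5 of them fell at 20 Gy. Among the 5 were the matrix genes Col1a1, Col1a2, Col3a1 and Lum, which are described below. The summed level, which these genes enter, was 31352 to 52061 CPM in untreated and 11569 to 15891 CPM in irradiated libraries. In passaged libraries it was 18891 to 27649 CPM. Replicate 1 stood apart: its libraries held keratinocyte mRNA, with 435, 0.0738, 0.0331 and 0.066 CPM of Krt5 in untreated replicates 1 to 4 and 76.7, 1.2, 0.917 and 0.99 CPM at 20 Gy, and a summed level of 8 markers of 980.0 CPM untreated and 343 CPM irradiated, against at most 6.17 CPM in the other 6 libraries. Of this set 4 were tested and 1 fell at 20 Gy. In replicates 2 to 4 alone, Krt5 was higher at 20 Gy (adjusted p = 0.000636 without replicate 1). Leukocyte markers were at or near 0 where they define the type: C1qa and Tyrobp had no count in the 8 libraries and Ptprc, Adgre1, C1qb and Aif1 stayed under 1 CPM, while 2 of 4 tested rose and the sum of the 10 markers was 16.8 to 43.6 CPM untreated and 32.5 to 43.8 CPM irradiated. Of 5 cartilage and bone markers tested 2 rose, and the set summed to 52.8 to 58 CPM untreated and 70.4 to 107 CPM irradiated. Of 4 endothelial markers tested 1 rose, with sums of 6.94 to 20.4 CPM and 8.71 to 31.7 CPM. No melanocyte, Schwann cell or skeletal muscle marker passed, and adipocyte and smooth muscle markers are given below. The part of keratinocyte mRNA, or of mRNA of these other cell types, in the results was not tested. In bulk libraries such as these, fewer cells of a kind and less RNA per cell cannot be told apart.

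At 12 d after 20 Gy, 4010 of 15119 genes tested differed from untreated cells (26.5%; edgeR's quasi-likelihood test, Benjamini-Hochberg adjusted p under 0.05). Of these, 1960 were higher (13.0%) and 2050 lower (13.6%). In all 4 replicate numbers 3977 of the 4010 moved the same way. The 4010 were called on these same libraries, so this agreement is no separate support. The median log2 fold change over all tested genes was −0.01. A rise of at least 1 on the log2 scale was called for 873 genes and a fall of at least 1 for 490. With the replicate number as a block (here called the paired fit) 7182 genes passed, 3509 higher (23.2%) and 3673 lower (24.3%), among them 4003 of the 4010. Leaving out replicate 1 gave 6087 calls, 19.5% of genes higher and 20.4% lower, and leaving out replicate 2, 3 or 4 gave 1658, 1092 and 1619, with 5.62, 3.81 and 5.66% of genes higher and 5.27, 3.37 and 5.06% lower. Each count of list members below is followed by the counts without replicates 1, 2, 3 and 4, in that order. The shares of all genes given here are the background for these counts: 13.0% higher and 13.6% lower, and 23.2% and 24.3% in the paired fit.

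**Figure D1:**
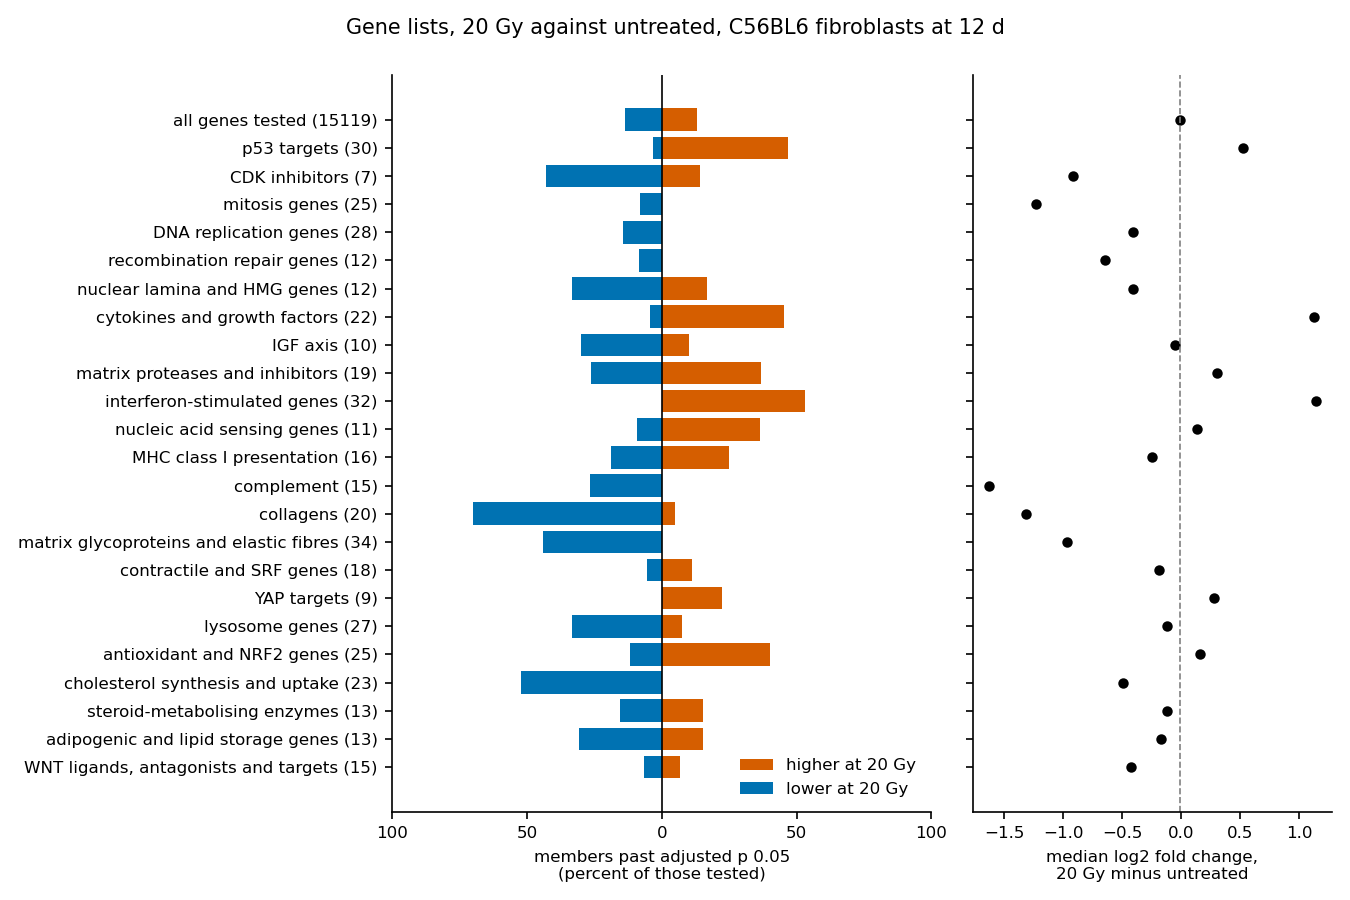
Share of tested members of 23 gene lists past adjusted p 0.05 at 20 Gy against untreated (left, percent, higher to the right in orange and lower to the left in blue, number tested in brackets) and the median log2 fold change of the tested members (right, the dashed line marks the median of all genes). Interferon-stimulated genes, p53 targets and cytokines lie on the higher side, with medians of 1.14, 0.52 and 1.13, and collagens, matrix glycoproteins and cholesterol genes on the lower side, with medians of −1.32, −0.97 and −0.49.

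Targets of p53 were higher in part 12 d after 20 Gy. Of 30 listed targets tested, 14 rose, 1 fell and 15 did not pass, against 13.0% and 13.6% of all genes, and their median log2 fold change was 0.52. Without replicates 1 to 4 in turn, 18, 14, 2 and 5 were higher, and 1 was lower each time. Cdkn1a, which encodes the CDK inhibitor p21, measured 320.3, 586, 423 and 384 CPM in untreated replicates 1 to 4 and 677, 837, 827 and 741 CPM at 20 Gy. The 4 irradiated libraries lay above the 4 untreated ones, and Cdkn1a rose 1.84-fold (log2 0.88 ± 0.18 SE, adjusted p = 0.0109). Mdm2, the ubiquitin ligase that degrades p53, measured 97.2, 161, 105 and 105 CPM untreated and 386, 413, 353 and 351 CPM irradiated, with no overlap. Its rise was 3.28-fold (log2 1.71 ± 0.17, adjusted p = 0.00106). Gdf15, a stress-induced hormone of the TGF-beta family, went from 0.681, 3.76, 2.29 and 0.792 CPM to 9.05, 11.3, 16 and 6.8 CPM, also without overlap (log2 2.55 ± 0.57, adjusted p = 0.0138). Ccng1, cyclin G1, rose 2.24-fold (adjusted p = 0.0224), Plk2, a polo-like kinase, 3.08-fold (adjusted p = 0.00355) and Tigar, which redirects glucose to the pentose phosphate pathway, 1.58-fold (adjusted p = 0.00451). Among the apoptosis genes of the list, Pmaip1 (Noxa) rose 5.21-fold from 10.5, 9.34, 3.38 and 3.2 CPM to 50.7, 41.1, 22.2 and 20.1 CPM (adjusted p = 0.0113). Bax (log2 0.32, adjusted p = 0.213), Bbc3, which encodes Puma (log2 0.06, adjusted p = 0.897), and Fas (log2 0.56, adjusted p = 0.172) did not pass, and the paired fit called Bax and Fas (adjusted p = 0.0308 and 0.00177), as the fit without replicate 1 did Fas (0.0256). The single target that fell was Sesn1, a stress-induced inhibitor of mTOR signalling, at 35.2, 37.5, 36.5 and 38.1 CPM untreated and 15.8, 15.1, 16.1 and 19.1 CPM at 20 Gy (log2 −1.12 ± 0.09, adjusted p = 0.000651). Perp, also a desmosome gene of keratinocytes, was 219.7, 3.43, 0.83 and 0.693 CPM untreated and 125, 22.5, 9.63 and 8.07 CPM irradiated: lower in replicate 1 and higher in the other 3, and it rose without replicate 1 (log2 3.06, adjusted p = 0.0112). Leaving out replicate 3 or 4 took Cdkn1a to adjusted p = 0.0872 and 0.0719, Ccng1 to 0.13 and 0.110, and Gdf15 to 0.0884 and 0.0528, without replicate 3 Tigar reached 0.0594, and without replicates 2 or 3 Pmaip1 reached 0.0582 and 0.0546.

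Of the 7 CDK inhibitors tested, 1 rose, which was Cdkn1a, and 3 fell (1, 1, 0 and 0 higher and 4, 3, 3 and 3 lower without each replicate). These are 14.3% and 42.9% of the list, beside 13.0% and 13.6% of all genes. Cdkn1b, which encodes p27 and is known to be high in resting cells, measured 115, 119.8, 139 and 149.5 CPM untreated and 35.3, 42.4, 44.8 and 48 CPM at 20 Gy. The irradiated libraries all lay below the untreated ones, a 3.01-fold fall (log2 −1.59 ± 0.12, adjusted p = 0.000617). The INK4 genes Cdkn2c (p18) and Cdkn2d (p19) fell 3.27-fold and 1.89-fold (adjusted p = 0.00321 and 0.00353). The senescence marker Cdkn2a, which encodes p16 and p19ARF, was 114, 174, 111 and 115 CPM untreated and 91.6, 181, 126 and 104 CPM irradiated, so the groups overlapped throughout (log2 0.00 ± 0.23, adjusted p = 1). Its neighbour Cdkn2b (p15) was 34.8, 77.6, 78.3 and 78.7 CPM and 57.1, 109, 92.8 and 80.9 CPM, higher in each of the 4 replicate numbers, and passed in the paired fit but not in the unpaired one (log2 0.36, adjusted p = 0.376 unpaired and 0.0274 paired). Cdkn1c, p57, was 3.55, 57, 16.3 and 15.9 CPM and 3.81, 6.88, 5.07 and 6.42 CPM (adjusted p = 0.0646, 0.0316 paired and 0.013 without replicate 1).

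**Figure D2:**
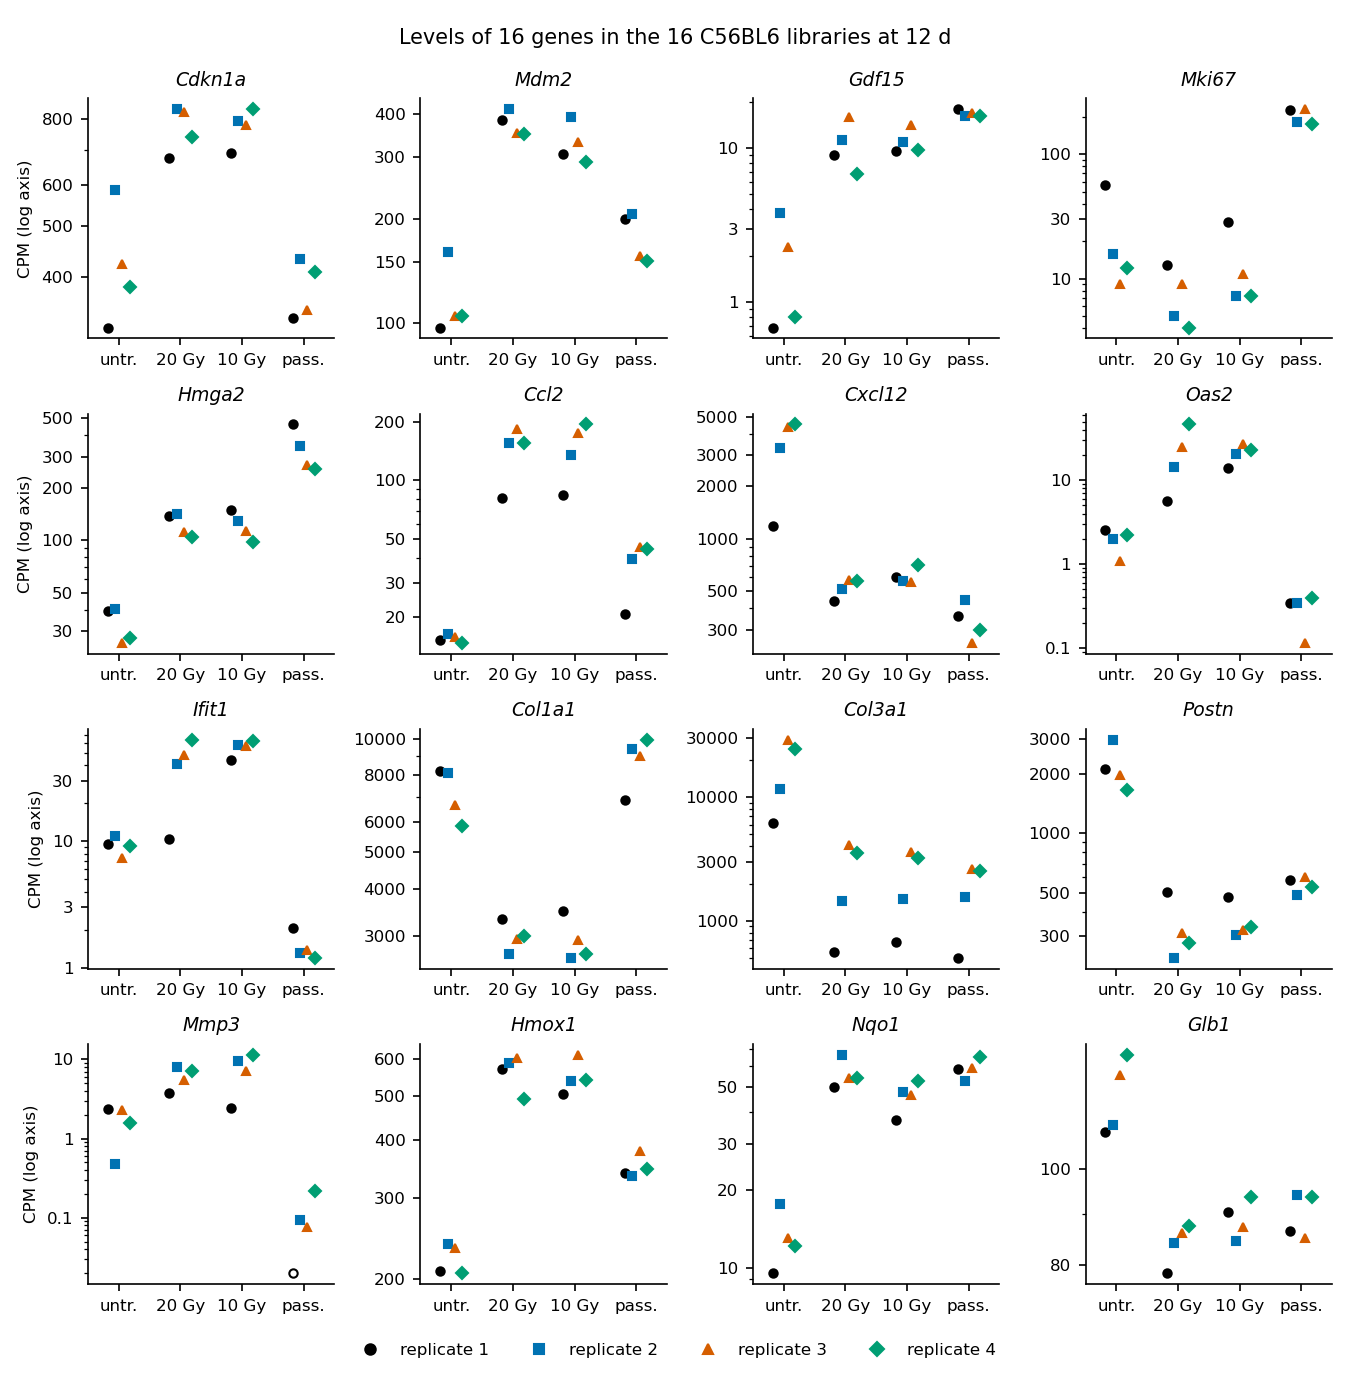
Level of 16 genes (CPM, log axis) in each C56BL6 library of 12 d: untreated, 20 Gy, 10 Gy and untreated passaged cells, with 1 point per library, coloured by replicate number. An open symbol at the foot of the Mmp3 panel is a library with no count. The 4 libraries at 20 Gy lie above the untreated ones for Mdm2 and Ccl2 and below them for Cxcl12 and Postn, and the 10 Gy libraries lie beside those at 20 Gy, whereas Mki67 is highest in passaged cells.

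Of 25 mitosis genes tested, 2 fell, Ccna2 (cyclin A2) and Ccnb2 (cyclin B2), and none rose, with a list median of −1.23, beside 13.6% of all genes lower, and the paired fit called 16 lower (background 24.3%). Mki67, which encodes the proliferation antigen Ki-67, measured 56.1, 15.8, 9.02 and 12.1 CPM untreated, 12.8, 5, 8.97 and 4.04 CPM at 20 Gy and 226, 179.6, 229.6 and 176 CPM in the passaged cells. Passaged cells thus held most, replicate 3 was alike untreated and irradiated, the groups overlapped, and Mki67 did not pass (log2 −1.56 ± 0.64, adjusted p = 0.105, 0.0162 paired and 0.0426 without replicate 1). Top2a, DNA topoisomerase 2-alpha, gave log2 −1.43 ± 0.53 (adjusted p = 0.0772, 0.0105 paired and 0.0185 without replicate 1), with 81.5, 32.9, 17.6 and 22.2 CPM untreated and 22.4, 8.39, 14.8 and 10.3 CPM irradiated. Ccna2 went from 27.5, 11.1, 5.4 and 6.54 CPM to 4.7, 2.24, 4.18 and 2.82 CPM (log2 −1.83, adjusted p = 0.0385) and Ccnb2 from 23.1, 9.63, 5.6 and 6.21 CPM to 4.81, 2.95, 3.75 and 2.49 CPM (log2 −1.64, adjusted p = 0.0373). The list's median difference within replicate numbers 1 to 4 was −1.78, −1.52, 0.04 and −0.79, and in replicate 3, 16 of 25 genes were higher at 20 Gy. Without replicate 1, 7 of the 25 passed as lower, and the median was −0.75, and without replicate 2, 3 or 4 none passed. Without replicate 2, 3 or 4, Ccna2 reached adjusted p = 0.156, 0.0762 and 0.101, and Ccnb2 0.149, 0.0858 and 0.0968.

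Of 28 DNA replication genes 4 fell and none rose, a share lower of 14.3% beside 13.6% of all genes, and the paired fit called 8 lower and 1 higher. Without replicates 1 to 4 in turn 7, 0, 0 and 0 were lower and 1, 0, 0 and 0 higher. The list median was −0.41, and −0.17 without replicate 1, and within replicate 3 the median difference was 0.01, with 14 of 28 genes higher at 20 Gy. The 4 were Mcm4, a subunit of the replicative helicase (log2 −0.52, adjusted p = 0.0318), Rfc4 of the clamp loader (log2 −0.65, adjusted p = 0.041), Tyms, thymidylate synthase (log2 −0.56, adjusted p = 0.0171), and Lig1, DNA ligase 1 (log2 −0.69, adjusted p = 0.0248). All 4 calls were lost without replicate 2, 3 or 4, at adjusted p up to 0.133, and that of Rfc4 also without replicate 1 (0.0820). The 1 member called higher in the paired fit was Rrm2, the small subunit of ribonucleotide reductase, at 41.9, 22.7, 13.8 and 12.1 CPM untreated and 58.1, 51.7, 53.2 and 35.5 CPM irradiated. Rrm2 was higher in every replicate number (log2 1.17, adjusted p = 0.0567, 0.00414 paired and 0.00392 without replicate 1). Of 12 recombination repair genes 1 fell (8.33%, beside 13.6% of all genes), which was Rad54l (log2 −0.89, adjusted p = 0.0462). That call did not hold without any 1 of the 4 replicates (adjusted p = 0.0945 without replicate 1 and up to 0.156), and the paired fit called 4 lower.

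Of 12 nuclear lamina and chromatin architecture genes 2 were higher and 4 lower, 16.7% and 33.3% beside 13.0% and 13.6% of all genes. The share higher was thus near that of all genes. Without each replicate 2, 1, 1 and 1 were higher and 6, 2, 1 and 1 lower. Lmnb1, lamin B1, was 22, 9.89, 11 and 12.2 CPM untreated and 9.51, 7.24, 8.22 and 8.35 CPM at 20 Gy. Every irradiated library was below every untreated one, but the fall did not pass unpaired (log2 −0.69 ± 0.26, adjusted p = 0.0785, 0.0139 paired and 0.0257 without replicate 1). Lbr, the lamin B receptor, fell (log2 −0.52, adjusted p = 0.0131), and Lmnb2 did not pass (log2 0.12, adjusted p = 0.691). Hmgb1, a chromatin protein that is also an alarmin when released, measured 239, 183, 189.6 and 177 CPM untreated and 101, 89.6, 96 and 96.7 CPM irradiated. That is a 2.01-fold fall with no overlap (adjusted p = 0.00122), and Hmgb2 also fell (log2 −1.03, adjusted p = 0.0292). The HMGA genes went the other way: Hmga2 rose from 39.2, 40.4, 25.8 and 27.6 CPM to 138, 142, 112 and 104 CPM (3.81-fold, adjusted p = 0.00105) and Hmga1 3.06-fold (adjusted p = 0.0137). The passaged cells held still more Hmga2, 461, 347, 269 and 257 CPM. Without replicate 2, 3 or 4 the adjusted p of Hmga1 was 0.0892, 0.0790 and 0.0542 and that of Hmgb2 0.0920, 0.0773 and 0.110, and without replicate 3 or 4 that of Lbr was 0.0915 and 0.0710.

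Of 22 cytokines and growth factors tested (of 29 listed), 10 rose, 1 fell and 11 did not pass, with a median log2 fold change of 1.13. The counts without each replicate were 11, 6, 6 and 7 higher and 2, 1, 1 and 1 lower. Ccl2, the monocyte chemoattractant MCP-1, was 15.3, 16.5, 15.9 and 14.9 CPM in the untreated libraries and 81.2, 155, 183 and 156 CPM at 20 Gy. The untreated libraries lay close together, the irradiated ones were all higher with replicate 1 the lowest, and Ccl2 rose 9.36-fold (log2 3.23 ± 0.23, adjusted p = 0.000517). Ccl7, its neighbour in the chemokine family, rose 2.14-fold (adjusted p = 0.0197). Ccl20, the ligand of CCR6, had 0.0359, 0, 0 and 0.066 CPM untreated, all at or under the level of 3 counts, and 0.43, 1.72, 1.83 and 1.93 CPM irradiated (adjusted p = 0.00276). Lif, a cytokine of the interleukin-6 family, rose from 16.3, 6.09, 4.64 and 3.04 CPM to 30.8, 31.7, 32.6 and 29.2 CPM (4.23-fold, adjusted p = 0.015), and Il11, of the same family, 2.4-fold (adjusted p = 0.0151). Il6 itself differed more between cultures than between doses: 5.24, 21.1, 44.1 and 45 CPM untreated and 15.7, 54.2, 103 and 81.9 CPM irradiated. It was higher after irradiation in each of the 4 replicate numbers, and passed in the paired fit and without replicate 1 (log2 1.17 ± 0.71, adjusted p = 0.257 unpaired, 0.000491 paired and 0.0309 without replicate 1). The growth factors Fgf2, Ereg (epiregulin) and Csf1 (macrophage colony-stimulating factor) rose 3.75-fold, 3.57-fold and 2.91-fold (adjusted p = 0.00107, 0.00135 and 0.00398). Cxcl10, an interferon-induced chemokine, rose 2.84-fold from a level under 1 CPM (adjusted p = 0.0217). The member that fell was Cxcl12, the chemokine that fibroblasts make to hold stem cells and lymphocytes, at 1177, 3304, 4362 and 4514 CPM untreated and 439.6, 518, 581 and 569 CPM at 20 Gy. All 4 irradiated libraries lay below all 4 untreated ones, a 6.21-fold fall (log2 −2.64 ± 0.39, adjusted p = 0.00327). Hgf, hepatocyte growth factor, was lower in each replicate number (log2 −1.24, adjusted p = 0.0705, 0.000537 paired and 0.00263 without replicate 1). Leaving out replicate 2, 3 or 4 took Lif to adjusted p = 0.0960, 0.0957 and 0.0587, Il11 to 0.0898, 0.109 and 0.0738, Ccl7 to 0.0994, 0.0902 and 0.0968, and Cxcl10 to 0.0817, 0.138 and 0.0729.

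Matrix proteases and their inhibitors went both ways: of 19 tested, 7 rose and 5 fell (36.8% and 26.3% against 13.0% and 13.6% of all genes). Without replicates 1, 2, 3 and 4 in turn 9, 2, 0 and 1 were higher and 6, 4, 3 and 3 lower. The inducible collagenase and stromelysin genes rose from low levels. Mmp3, stromelysin 1, was 2.33, 0.48, 2.32 and 1.55 CPM untreated and 3.78, 8.06, 5.53 and 7.11 CPM irradiated, with no overlap (log2 1.90 ± 0.47, adjusted p = 0.0205). Mmp13, collagenase 3, was 0.323, 0, 0.0331 and 0 CPM and 1.37, 2.62, 1.03 and 1.45 CPM (adjusted p = 0.0137), and Mmp10, stromelysin 2, 0.179, 0.111, 0 and 0 CPM and 0.974, 2.62, 1.89 and 0.965 CPM (adjusted p = 0.00733). For Mmp10 and Mmp13 the untreated libraries were thus at or near 0. Plaur, the urokinase receptor, rose 2.6-fold (adjusted p = 0.0253), and Timp3, an inhibitor bound to matrix, 2.06-fold (adjusted p = 0.0499). Among those that fell was Mmp2, gelatinase A, from 588, 603, 761 and 697 CPM to 313, 291, 309 and 308 CPM (log2 −1.09 ± 0.10, adjusted p = 0.00105). Mmp14, which activates it at the membrane, fell 1.55-fold (adjusted p = 0.00267) and Mmp19 1.73-fold (adjusted p = 0.00195). Without replicate 3 or 4 the adjusted p of Mmp3 was 0.0806 and 0.115 and that of Timp3 0.208 and 0.197, without replicate 2 or 3 that of Mmp10 0.0523 and 0.0541, and without replicate 2, 3 or 4 that of Plaur was 0.122, 0.126 and 0.0773 and of Mmp13 0.0767, 0.0846 and 0.0667.

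The bases upstream of these inducible genes are shown for the AP-1 letters they share, since AP-1 factors are known regulators of collagenase and stromelysin genes. The 3 stretches below, on GRCm39, run 5′ to 3′ on the gene's strand and end before the annotated start of the GENCODE canonical transcript. They are Mmp3 at chr9:7445747-7445806 from 75 to 16 bases before the start, Mmp10 at chr9:7502253-7502312 from 100 to 41 bases, and Mmp13 at chr9:7272449-7272508 from 65 to 6 bases, all on the plus strand. Capitals mark TGANTCA, which reads the same on both strands.
Mmp3: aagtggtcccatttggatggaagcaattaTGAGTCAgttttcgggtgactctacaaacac
Mmp10: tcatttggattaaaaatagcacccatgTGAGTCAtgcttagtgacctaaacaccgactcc
Mmp13: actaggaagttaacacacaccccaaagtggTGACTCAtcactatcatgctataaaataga
TGANTCA lay within 250 bases upstream of 7 of the 19 proteases and inhibitors (36.8%) and of 620 of 13181 protein-coding genes tested (4.70%). Of the 7, 4 rose and 1 fell, and of the 12 without the letters 3 rose and 4 fell. A match is a description of the sequence, not a site shown to be bound.

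Most interferon-stimulated genes were higher after irradiation in replicates 2 to 4, and by less in replicate 1. Of 32 tested (of 33 listed), 17 rose and none fell (53.1% against 26.5% of all genes), with a median of 1.14, and the paired fit called 25 higher. The list's median difference within replicate numbers 1 to 4 was 0.17, 1.06, 1.29 and 1.59, with 23, 28, 31 and 30 of the 32 genes higher at 20 Gy. In replicate 1 the widest steps were those of Oasl1 and Oas3, at log2 2.17 and 1.55, and Ifitm3 was lower at 20 Gy in each replicate number, at −0.88, −0.43, −0.20 and −0.06. Ifit1, which binds viral RNA lacking cap methylation, was 9.47, 11.1, 7.43 and 9.18 CPM untreated and 10.4, 41, 48.4 and 64 CPM at 20 Gy. Replicate 1 at 20 Gy lay within the untreated range and the other 3 well above it (log2 2.17 ± 0.47, adjusted p = 0.0128). At 10 Gy replicate 1 did not stand apart, with 44.4, 58.6, 56.6 and 62.5 CPM in replicates 1 to 4. Isg15, a ubiquitin-like modifier, was 8.36, 11.6, 5.87 and 6.44 CPM and 11.2, 23.4, 29.9 and 30.9 CPM (log2 1.59 ± 0.34, adjusted p = 0.0125). Oas2, which makes the 2-5A messenger that activates RNase L, was 2.58, 1.99, 1.09 and 2.25 CPM and 5.61, 14.3, 25.2 and 46.3 CPM, with no overlap (log2 3.56 ± 0.63, adjusted p = 0.00605). Its relatives Oas3 and Oasl1 rose 13.4-fold and 8.55-fold (adjusted p = 0.00617 and 0.00165), the reads of this multigene family being open to sharing between copies. Irf7, the transcription factor that amplifies interferon production, rose 2.5-fold (adjusted p = 0.0141), Usp18, which removes ISG15 and dampens the receptor, 4.13-fold (adjusted p = 0.0268) and Ifit3 2.98-fold (adjusted p = 0.0103). Zbp1, a sensor of Z-form nucleic acid, passed in the paired fit and without replicate 1 (log2 1.35, adjusted p = 0.203 unpaired, 0.0146 paired and 0.0313 without replicate 1). In passaged cells the same transcripts were scarcer than in untreated ones: Ifit1 2.06, 1.3, 1.38 and 1.19 CPM, Isg15 1.91, 1.7, 1.65 and 1.88 CPM and Oas2 0.344, 0.341, 0.115 and 0.397 CPM. Without replicate 1 the list held 24 calls and a median of 1.36, but without replicate 2, 3 or 4 it held 5, 1 and 2. In those 3 fits the adjusted p of Ifit1 was 0.0717, 0.0948 and 0.0807, of Irf7 0.0749, 0.100 and 0.0752, of Usp18 0.136, 0.132 and 0.132 and of Ifit3 0.0632, 0.0792 and 0.0636, that of Isg15 without 3 or 4 0.0939 and 0.0877, of Oas3 0.0510 and 0.0508, and of Oas2 without 3 0.0563.

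**Figure D3:**
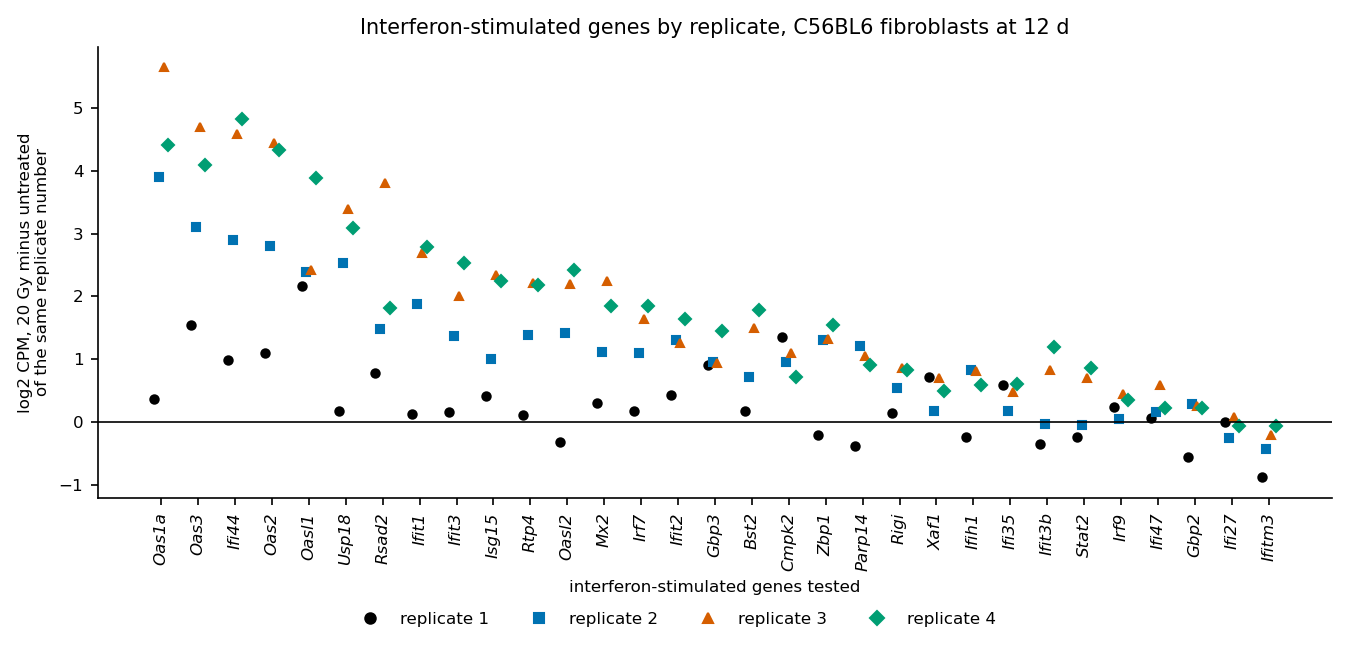
Difference in log2 CPM between 20 Gy and the untreated library of the same replicate number for 31 of the 32 interferon-stimulated genes tested, ordered by their mean, with 1 point per replicate number. Replicate 1 (black circles) lies nearest 0 for most genes, with a median of 0.17 over the 32, and replicates 2 to 4 lie higher, with medians of 1.06, 1.29 and 1.59.

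The interferon-stimulated response element, bound by STAT and IRF factors, gives the sequence these genes are known for. Stretches of 60 bases are shown for 5 members that rose, on GRCm39 and on the gene's strand: Ifit1 (chr19:34618166-34618225, plus strand), Isg15 (chr4:156285324-156285383, minus strand), Oas2 (chr5:120887959-120888018, minus strand), Oas3 (chr5:120915765-120915824, minus strand) and Usp18 (chr6:121222757-121222816, plus strand). Capitals mark GAAANNGAA or its reverse complement TTCNNTTTC, which overlap each other in Ifit1, Isg15 and Oas3.
Ifit1: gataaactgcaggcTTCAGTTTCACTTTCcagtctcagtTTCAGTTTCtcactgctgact
Isg15: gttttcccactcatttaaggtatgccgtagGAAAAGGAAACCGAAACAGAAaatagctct
Oas2: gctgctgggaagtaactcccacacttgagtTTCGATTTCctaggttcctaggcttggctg
Oas3: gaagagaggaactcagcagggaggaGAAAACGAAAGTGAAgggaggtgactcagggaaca
Usp18: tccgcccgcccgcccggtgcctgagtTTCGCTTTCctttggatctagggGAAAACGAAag
The letters lay within 250 bases upstream of 15 of 32 members (46.9%), against 908 of 13181 genes tested (6.89%). Among the 15, 9 rose, and among the 17 without the letters 8 rose. For the mitosis genes the CHR letters TTTGAA were found in 7 of 25 (28%, against 12.3% of genes) and CCAAT in 10 of 25 (40%, against 36%), on either strand.

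Sensors of nucleic acid and genes of antigen presentation changed in part. Of 11 sensing genes tested (of 12 listed), 4 rose and 1 fell, 36.4% and 9.09% beside 13.0% and 13.6% of all genes. Without each replicate 5, 2, 2 and 2 rose and 1, 1, 1 and 0 fell. Aim2, the cytoplasmic DNA sensor of an inflammasome, had 0, 0, 0.0331 and 0.033 CPM untreated, under the level of 3 counts in each library, and 0.63, 1.28, 0.401 and 0.584 CPM at 20 Gy (adjusted p = 0.00255). Adar, which edits double-stranded RNA, and Eif2ak2, the kinase PKR, rose 1.59-fold and 1.52-fold (adjusted p = 0.00316 and 0.028). Cgas, the enzyme that senses cytoplasmic DNA, did not pass (log2 −0.34, adjusted p = 0.307), and Sting1, its adaptor, fell from 62.6, 44.3, 39.1 and 50.3 CPM to 29.9, 27.4, 27.4 and 29.8 CPM (log2 −0.75 ± 0.14, adjusted p = 0.008). Of 16 genes of MHC class I presentation (of 17 listed), 4 rose and 3 fell (4, 0, 0 and 0 and 3, 1, 1 and 2 without each replicate). Nlrc5, the transactivator of class I genes, was 2.15, 0.332, 0.298 and 0.363 CPM untreated and 6.96, 6.31, 4.67 and 6.04 CPM irradiated (log2 2.96, adjusted p = 0.014). B2m, the class I light chain, and the heavy chain gene H2-D1, which has near-identical relatives, rose 1.42-fold and 1.69-fold (adjusted p = 0.0127 and 0.00586), and Tapbp, the peptide-loading factor tapasin, fell 2.07-fold (adjusted p = 0.00214), as did the nonclassical gene H2-M3 (log2 −0.66, adjusted p = 0.0113, and 0.0625 and 0.0751 without replicate 2 or 3). Without replicate 2, 3 or 4, adjusted p reached 0.168 for Eif2ak2, 0.0961 for B2m, 0.0578 for H2-D1 and 0.0850 for Nlrc5, and without replicate 4 it was 0.0542 for Sting1.

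Collagen transcripts were lower across most of the list. Of 20 collagen genes tested, 14 fell, 1 rose and 5 did not pass, with a median of −1.32, and 15, 9, 6 and 8 fell without each replicate (1, 1, 0 and 0 rose). Col1a1, of the main fibrillar collagen of skin, was 8188, 8119.6, 6650.1 and 5858 CPM untreated and 3322, 2689, 2940.0 and 2993 CPM at 20 Gy. The groups did not overlap, and Col1a1 fell 2.36-fold (log2 −1.24 ± 0.18, adjusted p = 0.00288), and its partner chain Col1a2 fell 2.93-fold (adjusted p = 0.00156). Col3a1, the chain of type III collagen, ranged widely between cultures, 6199.8, 11681, 29096 and 24255 CPM untreated and 560.0, 1447, 4069.9 and 3561 CPM irradiated. In each replicate number the irradiated value was lower, a 7.26-fold fall (log2 −2.86 ± 0.73, adjusted p = 0.0232). Col6a1 and Col6a2 of the beaded filaments fell 4.31-fold and 5.28-fold (adjusted p = 0.00123 and 0.00243). The 1 that rose was Col7a1, the anchoring fibril collagen of the dermal-epidermal junction, from 35.1, 16, 11.9 and 15.4 CPM to 89.5, 40.6, 61.8 and 80.5 CPM (log2 1.83, adjusted p = 0.0115). The basement membrane chain Col4a1 did not pass (log2 0.06, adjusted p = 0.796). The passaged cells divided the family differently: Col1a1 was 6887, 9404, 9007 and 9934 CPM there, beside the untreated cells, and Col3a1 501, 1567, 2605 and 2503 CPM, beside the irradiated ones. Leaving out replicate 2, 3 or 4 took Col3a1 to adjusted p = 0.103, 0.0862 and 0.0923, and leaving out 3 or 4 took Col7a1 to 0.0698 and 0.0818.

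Other matrix genes fell too, 15 of 34 glycoprotein and elastic fibre genes and none higher (median −0.97), and the paired fit called 23 lower and 4 higher. Without each replicate 23, 9, 8 and 9 were lower and 4, 0, 0 and 0 higher. Postn, periostin, was 2108, 2980.5, 1973 and 1663 CPM untreated and 505, 233, 311 and 279 CPM irradiated, 6.41-fold lower without overlap (adjusted p = 0.00134). Eln, elastin, was 133, 101, 39.1 and 38.1 CPM and 12.9, 10.7, 8.74 and 10.6 CPM (7.1-fold lower, adjusted p = 0.00366), and the elastic fibre genes Mfap4 and Fbn2 fell 19.4-fold and 16-fold (adjusted p = 0.00212 and 0.0198). Loxl1, which crosslinks elastin, and Spon2, a spondin, fell 1.87-fold and 2.29-fold (adjusted p = 0.00143 and 0.00233). Lum, the proteoglycan lumican, was 5.52, 101, 94.4 and 59.2 CPM and 1.29, 4.4, 6.02 and 5.23 CPM (adjusted p = 0.013). Dcn, decorin, was lower in each replicate number and passed in the paired fit and without replicate 1 (log2 −1.67, adjusted p = 0.0963 unpaired, 0.00144 paired and 0.00295 without replicate 1). Fn1, fibronectin, was higher in each replicate number, 4364, 6462, 6152 and 7317 CPM and 6299.8, 9824, 7969 and 8324 CPM (log2 0.44, adjusted p = 0.182 and 0.0248 paired). Without replicate 2, 3 or 4 the adjusted p of Fbn2 was 0.105, 0.110 and 0.0848 and that of Lum 0.0871, 0.0789 and 0.0724.

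Complement genes, which fibroblasts transcribe at high levels, gave 4 of 15 lower (26.7%, beside 13.6% of all genes) and none higher, with a median of −1.63. The paired fit called 8 lower and 1 higher (53.3% and 6.67%, beside 24.3% and 23.2%). The counts without each replicate were 8, 1, 1 and 3 lower and 1, 0, 0 and 0 higher. Cfd, factor D or adipsin, fell 22.1-fold, from 10.3, 16.7, 25.4 and 8.12 CPM to 0.258, 0.464, 0.974 and 0.965 CPM (adjusted p = 0.00167). It is also an adipocyte gene: of 5 adipocyte markers 2 were tested and both fell, with a sum of 5.16 to 22.8 CPM untreated and 0.515 to 1.29 CPM irradiated, and their part in the fall of Cfd was not tested. C1ra and C1s1, the proteases of the first component, fell 4.17-fold and 3.18-fold (adjusted p = 0.00868 and 0.00936), and C2 7.43-fold (adjusted p = 0.0315). C3, the central component, was lower in each replicate number, 448, 1535, 1636 and 2066 CPM and 76.8, 568, 511 and 643 CPM, with a spread that kept it from passing unpaired (log2 −1.63, adjusted p = 0.0999, 0.000652 paired and 0.000612 without replicate 1). Passaged cells were lower again, with 2.87, 25.8, 40.2 and 32.7 CPM of C3. The adjusted p of C1ra and C1s1 was 0.0550 and 0.0560 without replicate 2 and 0.0661 and 0.0698 without replicate 3, and that of C2 was 0.123, 0.115 and 0.133 without replicate 2, 3 or 4.

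The contractile genes of myofibroblasts gave 2 of 18 higher and 1 lower, near the background of 13.0% and 13.6%, and 5 higher and 3 lower in the paired fit (5, 1, 1 and 1 higher and 1, 0, 0 and 0 lower without each replicate). Acta2, smooth muscle actin, was 5371, 2747, 2266 and 1800.2 CPM untreated and 4873, 2669.6, 2658 and 2289 CPM irradiated, with replicate 1 highest in both (log2 0.07 ± 0.39, adjusted p = 0.912). Myh11, smooth muscle myosin, and Cald1, caldesmon, rose 2.2-fold and 1.66-fold (adjusted p = 0.00571 and 0.0152), and Itga11, a collagen receptor, fell 2.31-fold (adjusted p = 0.0172). The 5 smooth muscle and pericyte markers include Myh11, the 1 of them that rose. Their sum, which Myh11 enters, was 35.2 to 62.5 CPM untreated and 63.6 to 119 CPM irradiated. The part of such cells in these rises was not tested. Of 9 YAP targets and pathway genes 2 rose, Lats2 and Tead1 (1.8-fold and 1.58-fold, adjusted p = 0.00146 and 0.00578), and the paired fit called 5 higher and 1 lower (5, 2, 1 and 2 higher and 1, 0, 0 and 0 lower without each replicate). The best known targets Ccn2 and Ankrd1 were higher in each of the 4 replicate numbers and passed in the paired fit and without replicate 1 (log2 1.40 and 1.58, adjusted p = 0.0841 and 0.131 unpaired, 0.000341 and 0.000261 paired, 0.0119 and 0.00917 without replicate 1). Without replicate 2, 3 or 4 the adjusted p reached 0.0973 for Cald1 and 0.0846 for Itga11, and without replicate 3 it was 0.0573 for Tead1.

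Antioxidant genes, many of them targets of the transcription factor NRF2, were higher in part: 10 of 25 rose and 3 fell (40% and 12% against 13.0% and 13.6%), and the paired fit called 12 higher and 7 lower (13, 9, 8 and 10 higher and 5, 2, 1 and 1 lower without each replicate). Hmox1, heme oxygenase 1, was 208, 238, 233 and 206 CPM untreated and 572, 589, 602 and 491 CPM irradiated. Neither group spread widely, and Hmox1 rose 2.6-fold (log2 1.38 ± 0.10, adjusted p = 0.000517). Nqo1, a quinone reductase, was 9.51, 17.6, 13 and 12.2 CPM and 49.9, 66.5, 54.1 and 54 CPM (4.39-fold, adjusted p = 0.00088). Gclc, the rate-limiting subunit of glutathione synthesis, rose 3.03-fold (adjusted p = 0.000517), and Slc7a11, the cystine transporter, 3.05-fold (adjusted p = 0.008). Prdx6, a peroxiredoxin, and Txnrd1, thioredoxin reductase 1, rose 2.12-fold and 2.14-fold (adjusted p = 0.000651 and 0.00339). Mt1, a metallothionein, fell 2-fold (adjusted p = 0.0463). Passaged cells lay on the irradiated side for Nqo1, 58.5, 52.5, 59.3 and 65 CPM, and above it for Txnrd1, 569, 468, 416 and 421 CPM beside 349.8, 275, 235 and 205 CPM at 20 Gy. Without replicate 2 or 3 the adjusted p of Slc7a11 was 0.0506 and 0.0594, and without replicate 2, 3 or 4 that of Mt1 was 0.123, 0.142 and 0.133.

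The core of the antioxidant response element, through which NRF2 acts, is shown for the 2 members named above that hold it: Prdx6 (chr1:161079129-161079188, minus strand) and Txnrd1 (chr10:82694918-82694977, plus strand), from GRCm39 and on the gene's strand. Capitals mark TGACNNNGC or its reverse complement GCNNNGTCA.
Prdx6: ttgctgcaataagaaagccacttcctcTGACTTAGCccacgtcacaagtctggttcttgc
Txnrd1: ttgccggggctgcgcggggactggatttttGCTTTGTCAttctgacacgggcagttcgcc
The letters lay within 250 bases upstream of 6 of the 25 members (24.0%), against 1391 of 13181 genes (10.6%). Of the 6, 4 rose, and of the 19 without them 6 rose and 3 fell. Hmox1, Nqo1 and Gclc hold no match in this window.

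Lysosomal genes leaned lower: 9 of 27 tested (of 29 listed) fell and 2 rose (33.3% and 7.41% against 13.6% and 13.0%), and the paired fit called 12 lower and 7 higher (44.4% and 25.9% against 24.3% and 23.2%). Without each replicate 12, 6, 0 and 5 were lower and 4, 1, 0 and 1 higher, so that no fall passed without replicate 3. Glb1, which encodes the beta-galactosidase whose activity is stained as a mark of senescence, was 109, 111, 124 and 130.2 CPM untreated and 78.4, 84.1, 86.2 and 87.4 CPM irradiated. Its mRNA was thus lower in every irradiated library than in any untreated one (log2 −0.47 ± 0.08, adjusted p = 0.00498, and 0.0596 without replicate 3). Lamp2, a lysosomal membrane protein, fell 1.91-fold (adjusted p = 0.00548, and 0.0535 without replicate 3). Atp6v1h, a subunit of the proton pump, rose 1.48-fold (adjusted p = 0.0039, and 0.0540 without replicate 3), and Lamp1 passed in the paired fit but not in the unpaired one (log2 0.24, adjusted p = 0.105 and 0.0301).

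Genes of cholesterol synthesis and uptake fell by small amounts. Of 23 tested, 12 fell and none rose, with a median of −0.49, and 17, 5, 4 and 5 fell without each replicate. Hmgcs1, HMG-CoA synthase, was 86.7, 115, 102 and 94.9 CPM untreated and 65.5, 59.6, 61.4 and 60.9 CPM irradiated, with no overlap (log2 −0.65 ± 0.09, adjusted p = 0.00269). Fdft1 (squalene synthase), Ebp and Dhcr7, which act later in the pathway, fell 1.4-fold, 1.61-fold and 1.77-fold (adjusted p = 0.00505, 0.00221 and 0.0049). Srebf2, the transcription factor of the pathway, fell 1.43-fold (adjusted p = 0.0174, and up to 0.0880 without replicate 2, 3 or 4).

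The largest changes were read among genes with a mean of at least 5 CPM, the same direction in the 4 replicate numbers and an adjusted p under 0.05. Egfl6, a secreted protein of the hair follicle basement membrane, was 44.2, 102, 265 and 215 CPM untreated and 0.344, 1.09, 2.38 and 4.14 CPM irradiated, 76.6-fold lower (adjusted p = 0.00268). Vtn (vitronectin), Car3 (carbonic anhydrase 3), Sectm1a and Adamts15 (a protease of proteoglycans) fell 72-fold, 58.1-fold, 50.2-fold and 28.4-fold (adjusted p = 0.0095, 0.0049, 0.00936 and 0.0163). Lrrc17, Megf6 and Il1rn, the interleukin-1 receptor antagonist, fell 16.4-fold, 15.1-fold and 13.7-fold (adjusted p = 0.00247, 0.00167 and 0.00141). On the higher side stood Hsd3b6, a steroid dehydrogenase of a multigene family, at 0, 13.1, 6 and 10.9 CPM untreated and 10.7, 302, 346 and 438 CPM irradiated: 0 counts in untreated replicate 1, and a rise in every replicate number (adjusted p = 0.0259). Akr1c18, which inactivates progesterone and also has close relatives, was 0.143, 0.591, 0.497 and 0.561 CPM and 6.67, 16.1, 22.5 and 18.8 CPM (36-fold, adjusted p = 0.00107). Ivl, involucrin of the cornified envelope of keratinocytes, was 3.12, 0.185, 0.133 and 0.165 CPM untreated and 20.5, 19.4, 8.85 and 6.47 CPM irradiated, higher in every replicate number (adjusted p = 0.0275, and 0.000588 without replicate 1). Havcr2 (the receptor TIM-3), Olr1 (the oxidised LDL receptor LOX-1) and Cobl, an actin nucleator, rose 9.21-fold, 8.19-fold and 9.15-fold (adjusted p = 0.0039, 0.00295 and 0.00946). Ifi209, of the DNA-binding PYHIN family, the prolactin-family genes Prl2c2 and Prl2c3 and the receptor gene Vmn2r79 rose 21.6-fold, 8.8-fold, 11.8-fold and 21.6-fold (adjusted p = 0.0016, 0.00444, 0.00599 and 0.00026), with uncertain assignment of reads between near-identical copies. Without replicate 2, 3 or 4 the adjusted p reached 0.141 for Hsd3b6, 0.135 for Ivl and 0.0675 for Vtn. It reached 0.0701 for Cobl without replicate 2 or 3, 0.0651 for Sectm1a and 0.0836 for Adamts15 without replicate 3 or 4, 0.0511 for Car3 without replicate 3 and 0.0521 for Prl2c3 without replicate 4.

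Untreated cells that were passaged, grown in the same batch for the same time, give another reference for the irradiated cells. Of the 1960 genes that were higher at 20 Gy, 685 (34.9%) had all 4 irradiated libraries above the 4 untreated and also above the 4 passaged libraries, and of the 2050 lower genes 589 (28.7%) lay below both. Over all 15119 genes tested the shares were 5.13% and 5.50%. Among the interferon-stimulated genes 12 of the 17 that rose lay above both, among p53 targets 8 of 14 and among cytokines 5 of 10. Mdm2, for which passaged cells had 199, 206, 156 and 151 CPM, Cdkn1a, with 334, 433, 347 and 409 CPM, and Ccl2, with 20.8, 39.8, 45.7 and 44.7 CPM, were above both, whereas Gdf15, with 17.9, 16.2, 16.9 and 16.3 CPM in passaged cells, was not. Among the antioxidant genes 2 of 10 lay above both. On the lower side, 7 of 14 collagens lay below both references, 3 of 15 matrix glycoproteins, none of 4 complement genes and 3 of 12 cholesterol genes. Cxcl12 (359, 445, 253 and 299 CPM in passaged cells) and Sesn1 (13.2, 9.5, 11.1 and 13.3 CPM) were lower in passaged than in irradiated cells of each replicate number, while Cdkn2c (14.2, 13, 18.5 and 21.4 CPM) and Hmgb1 (197, 143, 162 and 164 CPM) were below both references at 20 Gy. These are counts of libraries that do not overlap, and irradiated cells were not tested against passaged cells.

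At 24 h after the same dose, the number of genes called depended on the pairing. Of 14526 genes tested, 13 passed unpaired (0.0895%), 12 higher and 1 lower (0.0826% and 0.00688%), and 2563 in the paired fit (17.6%), 1191 higher and 1372 lower (8.20% and 9.45%). Unpaired, 4 of 30 p53 targets had risen at 24 h and no member of the other 22 lists passed. The paired fit called 18 of the 30 p53 targets higher, 14 of 31 matrix glycoproteins lower, 6 collagens of 20 lower and 3 higher, 5 cytokines of 20 higher and 6 lower, and 1 of 27 interferon-stimulated genes in each direction. The difference between the 2 changes, 12 d minus 24 h, passed for 1373 of 15978 genes (8.59%), 606 higher (3.79%) and 767 lower (4.80%), and for 4990 in the paired fit (31.2%; 14.5% higher and 16.8% lower). Without replicate 1 the count was 2658, and without replicates 2, 3 or 4 it was 320, 151 and 169. Mdm2 had 224, 214, 205 and 176 CPM in untreated and 415, 401, 425 and 371 CPM in irradiated libraries at 24 h, a rise of log2 0.98 (adjusted p = 0.0269). Its change was larger at 12 d (difference 0.71, adjusted p = 0.0327). The irradiated levels of Mdm2 overlapped between the 2 times, whereas its untreated libraries lay lower at 12 d than at 24 h. Cdkn1a at 24 h was 301, 413, 331 and 351 CPM and 444, 498, 473 and 522 CPM, and the difference between its changes passed in the paired fit but not in the unpaired one (0.38, adjusted p = 0.294 unpaired and 0.0331 paired). Ccl2 was 22.2, 29.4, 45.2 and 39.7 CPM and 21.3, 32.9, 45.7 and 45.9 CPM at 24 h, with the groups overlapping, and the difference from 12 d was 3.10 (adjusted p = 0.000626). Of the antioxidant genes, 9 of 25 changed more upward at 12 d and 2 more downward. Among the 9 were Gclc (difference 1.61, adjusted p = 0.000117), Hmox1 (1.15, 0.00151) and Nqo1 (1.51, 0.00654). Untreated cells of the 2 times differed in Nqo1, with 59.7, 60, 75.5 and 61 CPM at 24 h and 9.51, 17.6, 13 and 12.2 CPM at 12 d. Irradiated cells of 24 h had 68.4, 80, 129 and 111 CPM of Nqo1. Untreated Hmox1 at 24 h was 347, 429, 453 and 379.8 CPM, above its untreated level at 12 d. Of 25 cytokines tested 7 changed more upward at 12 d and 1 more downward. Of 20 collagens 5 changed more downward at 12 d, and 15 in the paired fit (background 16.8%), among the 5 Col1a1 (difference −1.21, adjusted p = 0.00972). Of 32 interferon-stimulated genes 3 differed upward and 10 in the paired fit (background 14.5%), and Ifit1 at 24 h stood at 1.58, 0.629, 2.01 and 2.28 CPM untreated and 1.03, 1.91, 1.99 and 2.17 CPM irradiated.

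**Figure D4:**
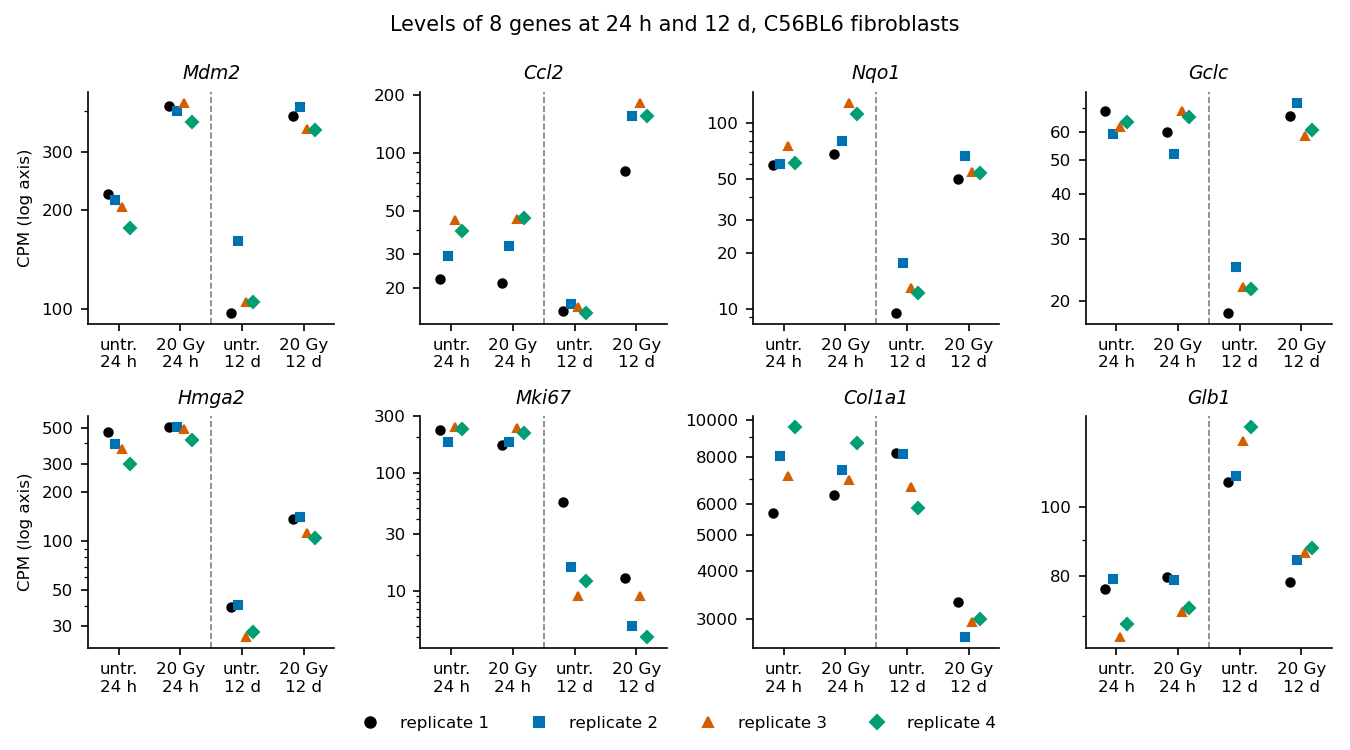
Level of 8 genes (CPM, log axis) in C56BL6 libraries at 24 h (left of the dashed line) and 12 d (right), untreated and 20 Gy, with 1 point per library coloured by replicate number. CPM were scaled separately for the 2 times. The irradiated libraries lie above the untreated ones at both times for Mdm2 (351 to 413 CPM at 12 d), and for Ccl2 at 12 d, whereas its groups overlap at 24 h.

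For some of the largest differences between the times, too, untreated cells of the 2 times differed themselves. Steap3, a ferrireductase, was 6.26, 1.86, 4.27 and 3.24 CPM in untreated cells of 24 h and 6.72, 2.64, 3.82 and 3.72 CPM after irradiation, and 61, 147, 357 and 294 CPM and 14.2, 18, 30.1 and 28.4 CPM at 12 d. Irradiated cells of 12 d were thus nearer than untreated ones to the cells of 24 h (difference −3.35 ± 0.70, adjusted p = 0.0109). Fgl2, a secreted fibrinogen-like protein, and Enpp3, an ectonucleotidase, differed by −3.46 ± 0.83 and −3.30 ± 0.66 (adjusted p = 0.0203 and 0.00863). In the other direction Prl2c2, Prl2c3 and Vmn2r79 differed by 3.67 ± 0.78, 3.55 ± 0.84 and 3.37 ± 0.51 (adjusted p = 0.0116, 0.0197 and 0.00171). Prl2c2 was 114, 34.2, 64 and 34.7 CPM in untreated cells of 24 h. The libraries of 24 h were batch B1 and those of 12 d batch B2, so the effect of time and that of batch cannot be told apart here.

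The change at 20 Gy was set against that of wild mouse fibroblasts at 12 d. No gene of 15914 passed for a difference between the 2 changes in the unpaired edgeR fit (0.00%), and 8 did by DESeq2. In the paired fit 16 passed, 6 with a more upward change in C56BL6 cells (0.0377%) and 10 with a more downward one (0.0628%). The unadjusted edgeR p was under 0.05 for 353 genes (2.22%) unpaired and for 1765 (11.1%) paired. Of genes of at least 5 CPM, Nqo1 went from 9.2, 10.5, 10.9 and 7.04 CPM to 17.6, 16.9, 14.8 and 11.8 CPM in wild cells, a smaller step than in C56BL6 cells (difference 1.43 ± 0.14, adjusted p = 0.0139 paired and 0.711 unpaired). Slc12a2, the sodium, potassium and chloride cotransporter, was 16.8, 12.4, 11.6 and 11.6 CPM and 34.4, 32.9, 24.8 and 25.1 CPM in C56BL6 cells and 15.9, 23.2, 23.8 and 19.4 CPM and 15.9, 18.6, 23.4 and 20.3 CPM in wild cells, where the groups overlapped (difference 1.24 ± 0.13, adjusted p = 0.0139 paired and 0.729 unpaired), and the predicted gene Gm20544 differed by 1.36 (adjusted p = 0.0451 paired and 0.729 unpaired). On the lower side stood Egfl6, the imprinted lncRNA H19 and Pdgfrl, a receptor-like protein (differences −3.36, −3.01 and −2.13, adjusted p = 0.0139, 0.0392 and 0.026 paired, and 1, 1 and 0.961 unpaired). H19 was 105, 4.57, 2.67 and 104 CPM in untreated wild cells and 99.7, 900.3, 1559 and 997 CPM in untreated C56BL6 cells. Side by side, Cdkn1a in wild cells was 83.6, 37.8, 128 and 74.9 CPM untreated and 457, 312, 413 and 421 CPM irradiated, and Ccl2 46.7, 9.84, 29.8 and 33.5 CPM and 229, 68.9, 77.3 and 195 CPM. The p that misses the threshold does not show that the strains responded alike.

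Few genes passed the threshold between 20 Gy and 10 Gy at 12 d. No gene of 15463 passed in the unpaired edgeR fit (0.00%) and none by DESeq2. The paired fit called 46 (0.297%), 35 higher at 20 Gy (0.226%) and 11 lower (0.0711%). The unadjusted edgeR p was under 0.05 for 301 genes (1.95%) unpaired and for 2017 (13.0%) paired. A missed threshold does not show that the doses acted alike. Cobl was 52.9, 38.3, 25.5 and 21.2 CPM at 10 Gy and 80.8, 51.4, 33.7 and 29.7 CPM at 20 Gy, higher in each replicate number (log2 0.49 ± 0.06, adjusted p = 0.025 paired and 1 unpaired). Arhgap20 and Ces2g, a carboxylesterase, were higher by 0.46 and 0.44 (adjusted p = 0.0374 and 0.039 paired, 1 unpaired). In the paired fit 3 of 25 mitosis genes were lower at the higher dose, Mki67, Prc1 and Top2a. Mki67 stood at 28.3, 7.29, 10.9 and 7.28 CPM at 10 Gy against 12.8, 5, 8.97 and 4.04 CPM at 20 Gy (log2 −0.72 ± 0.13, adjusted p = 0.0448 paired and 1 unpaired). Prc1, of the central spindle, differed by −0.72 and Top2a by −0.62 (adjusted p = 0.0448 and 0.0296 paired, 1 unpaired). D17H6S56E-5 differed by −0.71 (adjusted p = 0.0448 paired and 1 unpaired). For the marker genes at the head of this account the doses gave log2 differences of 0.00 for Cdkn1a, 0.19 for Mdm2, −0.03 for Ccl2, 0.04 for Col1a1 and −0.07 for Glb1, and none of the 5 passed in either fit.

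More genes were detected in irradiated cells. With every library thinned to 26653561 counts, 16302 to 16768 protein-coding genes had a count at 20 Gy and 14747 to 14809 in untreated libraries, 16084 to 16379 at 10 Gy and 14636 to 14884 in passaged cells. The 4 irradiated libraries lay above the 4 untreated ones (exact permutation test, two-sided, p = 0.0286, the smallest that 4 against 4 allows, and 0.0286 after adjustment over 5 gene classes). With the dose exchanged only within replicate numbers the exact p was 0.125 for each class, the smallest that 4 pairs allow, so the paired design cannot pass 0.05 here. The same held for lncRNA genes, 3903 to 4261 at 20 Gy and 2922 to 3226 untreated, and for the 1545 olfactory and vomeronasal receptor genes, known mainly from sensory neurons, 114 to 134 and 41 to 52 (exact p = 0.0286 for each). Without thinning, 16553 to 16954 protein-coding genes were detected at 20 Gy and 14800 to 14922 untreated. There were 492 genes with no count in the 4 untreated libraries and at least 1 in each of the 4 at 20 Gy after thinning, and 10 of the opposite kind. The 492 held a median of 2.5 counts per library and 0.0054 to 0.00805% of all counts at 20 Gy. Of them, 205 were seen in all 4 libraries at 10 Gy and 36 in all 4 passaged libraries.

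**Figure D5:**
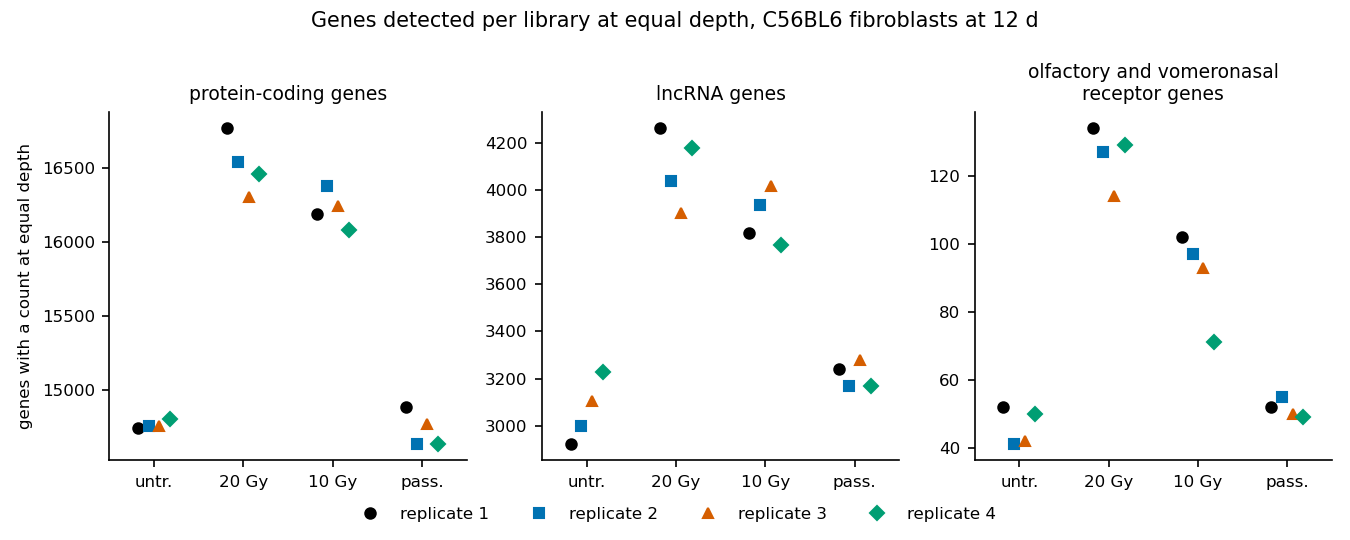
Number of genes with at least 1 count in each C56BL6 library of 12 d after thinning to 26653561 counts, for protein-coding genes, lncRNA genes and the 1545 olfactory and vomeronasal receptor genes, with 1 point per library coloured by replicate number. Vertical axes do not start at 0. The libraries at 20 Gy (114 to 134 receptor genes) and 10 Gy (71 to 102) lie above the untreated (41 to 52) and passaged ones.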

How the data were processed

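RNA-seq counts per gene were deposited by the authors as raw read counts. Per the submitters' processing notes, the tools named are Trim Galore, HISAT2 and featureCounts with the GRCm39 build, and per the file header featureCounts was version 2.0.3 with Ensembl 108. Whether counting used strand is not given in the sources used here, so overlapping antisense genes cannot be told apart, nor reads shared by near-identical copies. Of 56980 gene identifiers 56236 had a symbol.

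Counts were filtered by expression, scaled by TMM and fitted with edgeR 4.0.16 in R 4.3.3 (quasi-likelihood test, Benjamini-Hochberg adjustment over all genes tested, threshold 0.05), on the 8 libraries for 20 Gy against untreated, 8 for 20 against 10 Gy, and 16 for each difference between changes. Printed log2 fold changes are those of the fits. The value after ± (SE) was derived from the test: the absolute log2 fold change divided by the square root of its F statistic. The fit was also run on simulated counts that held no effect of culture, unlike these libraries, so that run does not bear on the pairing. Alternatives were the replicate number as a block, size factors of the relative log expression kind (RLE), no expression filter, DESeq2 1.42.0, leaving out each replicate, and all 4 C56BL6 groups of 12 d in one fit. The fit with the block and without replicate 1, and the exact test within pairs, were chosen after seeing the data. Same-numbered libraries carry the same culture code in the labels, and their deviations from the group means correlated at 0.53 to 0.75 in the 4 pairs. The numbers were therefore read as pairs in the paired fit and in the differences within replicate numbers. The main fit, its list counts and the fits without 1 replicate did not use the pairing. Differences between cultures thus stay in the spread behind their p-values. Libraries of a group differed by far more than sampling noise (mean chi-square 16.7 to 273.0 per gene).

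Genes named are an 18-gene panel, the 12 largest changes in each direction (mean of at least 5 CPM, past the threshold, same direction in 4 pairs, no predicted genes), the 4 smallest p-values of each of 23 lists, and the 3 largest of each difference and direction, with other list members chosen after their values were seen. The members and lists were chosen with earlier results of these data known. Promoter bases were read from GRCm39 with GENCODE canonical starts. Limits of 3 counts cover counting error only. Some named genes are not reported here.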

Additional observations from a re-analysis of the deposited data

Results flagged for a closer look

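In each group of 4 libraries, the highest or lowest library was set against the other 3, and 43 of 360 groups of 4 held a library far from the rest by Dixon's ratio. With independent, normally distributed values about 1 in 20 such groups would be flagged. The groups here are genes read in the same libraries, some near 0 CPM, so that share is no measure of chance for them. Replicate 1 was that library in 36 of the 43, and untreated replicate 1 in 23. Genes of keratinocytes and of dividing or epithelial cells stood out there: in untreated replicate 1, in CPM, Perp 219.7, Anln 122, Krt5 435, Krt14 442 and Dsp 98, and in replicate 1 at 20 Gy Perp 125, Anln 76.9, Krt5 76.7, Krt14 177 and Dsp 85.5. The summed keratinocyte markers were 980.0 CPM in untreated replicate 1 and 343 CPM in replicate 1 at 20 Gy, the endothelial markers 31.7 CPM in the latter and the Schwann cell markers 22 CPM in the former. The other levels that stood apart in untreated replicate 1 were, in CPM, Cdkn2b 34.8, Mki67 56.1, Ivl 3.12, Bub1b 28.5, Mcm4 41.5, Fanci 3.98, Mmp14 1007, Col6a1 3499, Col6a2 2384, Dkk3 493, Cdk1 70.1, Hmgb2 22.6, Mmp13 0.323, Usp18 6.6, Nlrc5 2.15 and Ankrd1 114. In replicate 1 at 20 Gy they were Acta2 4873, Ifi209 4.95, Igfbp4 639, Ccl20 0.43, Dcn 60.1 and Bglap 1.75 CPM. At 20 Gy, replicate 3 stood apart for Ebp 23.6 and Wnt10b 1.32 CPM. At 20 Gy, replicate 4 stood apart for Hmgb2 5.05 CPM. Untreated replicate 2 stood apart for Mdm2 161, Cdkn2a 174 and Zmat3 170.2 CPM. Untreated replicate 3 stood apart for Adar 28.9 CPM. The part of the keratinocyte mRNA of replicate 1 in these values was not tested.

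The change at 20 Gy differed between 12 d and 24 h (12 d minus 24 h, log2, edgeR without pairing) by Prl2c2 3.67, Prl2c3 3.55, Vmn2r79 3.37, Fgl2 −3.46, Steap3 −3.35 and Enpp3 −3.30. Between C56BL6 and wild cells at 12 d it differed in the paired fit (C56BL6 minus wild, log2) by Nqo1 1.43, Gm20544 1.36, Slc12a2 1.24, Egfl6 −3.36, H19 −3.01 and Pdgfrl −2.13, of which none passed without pairing.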

How the results depend on the processing

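The count of genes changed at 20 Gy stayed within 1.5 times of 4010 with RLE factors, no expression filter, DESeq2 and all groups in one fit (3596 to 5445). It was 7182 with the replicate block, 7941 with the block and without replicate 1, and 1092 to 6087 without 1 replicate. The count that differed between 12 d and 24 h was 749 with no filter, 2116 by DESeq2, 4990 with the replicate block and 151 to 2658 without 1 replicate. Between C56BL6 and wild cells it was 8 by DESeq2 and 16 with the replicate block, and between 20 and 10 Gy 46 with the block; leaving out a replicate left both at 0. Of 174 named genes tested, 132 passed, 58 of them under every alternative, and no gene that passed reversed. The block changed the call of 28 named genes, all of which then passed, and reversed 2; apart from the counts above and 21 of 46 list counts it changed no other call. Cdkn2a, near 0, turned to 0.01 with RLE factors and with DESeq2, 0.06 with the block and without replicate 1, and −0.06 to 0.06 without 1 replicate (0.06 without replicate 1, 0.03 without replicate 4). Perp turned to 1.80 with the block, 3.06 without replicate 1 and 3.16 with both, Krt5 to 4.11 without replicate 1 in either fit, and Dsp to 1.11, 4.81 and 4.77. Without 1 replicate these 3 ranged from −0.59 to 3.06, −2.42 to 4.11 and −0.12 to 4.81. The mean gain of 1748.5 detected protein-coding genes had exact p = 0.0286, and 0.125 with the dose exchanged within replicate numbers. The cause of these changes was not tested. Fewer libraries enter each fit that leaves one out, and 3 counts, or 0.081 to 0.106 CPM before TMM factors, limit what was detectable.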

Other observations

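Genes of fat storage moved in both directions. Of 13 adipogenic and lipid storage genes tested, 4 fell and 2 rose, beside 13.6% and 13.0% of all genes, with a median of −0.17. Without replicates 1 to 4 in turn 7, 2, 2 and 2 were lower and 3, 0, 0 and 0 higher. Adipoq, adiponectin, was 3.44, 9.26, 15.4 and 6.7 CPM untreated and 0.2, 0.164, 0.544 and 0.686 CPM at 20 Gy (21.1-fold lower, adjusted p = 0.00276 by edgeR), and Lpl, lipoprotein lipase, 288, 154, 659 and 502 CPM and 66.9, 19.8, 92.7 and 85.5 CPM (5.92-fold lower, adjusted p = 0.0146, and 0.0751 and 0.0764 without replicate 3 or 4). In both genes the groups did not overlap. Plin1, the coat protein of large lipid droplets, fell 9.85-fold (adjusted p = 0.00567, and 0.0515 without replicate 2) and Cebpa, an adipogenic transcription factor, 3.24-fold (adjusted p = 0.0233, and up to 0.129 without replicate 2, 3 or 4). Those that rose were Plin2 and Plin4, also droplet coat proteins (1.66-fold and 1.56-fold, adjusted p = 0.0313 and 0.0261). Pparg did not pass (log2 0.17, adjusted p = 0.655).

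Of 10 genes of the insulin-like growth factor axis 1 rose and 3 fell (2, 1, 0 and 0 and 3, 1, 0 and 0 without each replicate). Igf1r, the receptor, was 189, 131, 152 and 151 CPM untreated and 213, 254, 267 and 252 CPM irradiated (1.62-fold, adjusted p = 0.00575, and 0.0650 and 0.0513 without replicate 3 or 4). The binding proteins Igfbp3, Igfbp4 and Igfbp6 fell 6.14-fold, 2.98-fold and 1.35-fold (adjusted p = 0.0135, 0.0194 and 0.0326). Their adjusted p was 0.0664, 0.129 and 0.155 without replicate 3, 0.0768, 0.113 and 0.119 without replicate 4, and for the last 2 also 0.0886 and 0.0798 without replicate 2. Igf1 passed in the paired fit but not in the unpaired one (log2 −0.42, adjusted p = 0.337 and 0.0356), and Igfbp2 was 328, 240.2, 194 and 325 CPM and 1297, 165, 199 and 238 CPM, higher in replicates 1 and 3 and lower in the other two (adjusted p = 0.38).

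Of 13 steroid-metabolising enzymes tested (of 18 listed), 5, 1, 1 and 1 rose and 3, 2, 1 and 2 fell without each replicate. With all replicates 2 rose and 2 fell, 15.4% each beside 13.0% and 13.6% of all genes. Those that rose were Hsd3b6 and Akr1c18. Those that fell were Cyp7b1, an oxysterol hydroxylase (8.83-fold, adjusted p = 0.00722, and 0.0580 without replicate 3), and Hsd17b11 (1.44-fold, adjusted p = 0.00288). Of 15 WNT genes tested (of 16 listed), 1 rose and 1 fell, 6.67% each, which is below the share of all genes. Wnt10b rose (log2 0.92, adjusted p = 0.0179) and Wnt5b fell (log2 −0.82, adjusted p = 0.0209). Neither call held without replicate 2, 3 or 4 (adjusted p up to 0.114). Without each replicate 2, 1, 0 and 0 WNT genes were higher and 3, 0, 0 and 0 lower. The paired fit called 4 WNT genes higher and 4 lower, 26.7% each beside 23.2% and 24.3% of all genes. Among those lower was the antagonist Sfrp1, at 2949, 8198, 13136 and 12864 CPM untreated and 299.9, 2283, 4137 and 4109 CPM irradiated (log2 −1.75, adjusted p = 0.124 unpaired, 0.00229 paired and 0.00446 without replicate 1).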
